A study of Mus musculus with 24 samples.

Results

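The chemokines and chemokine receptors of mouse fat were taken as every protein-coding row of the deposited gene table whose symbol names a Ccl, Cxcl, Cx3cl or Xcl ligand, a Ccr, Cxcr, Cx3cr or Xcr receptor, or an atypical receptor (Ackr). The rule found 66 rows with 60 distinct symbols, of 54532 genes in the table and 22046 that are protein coding. There were 44 ligand rows with 38 symbols and 22 receptor rows with 22 symbols. Cxcl11 has a symbol of this form but is annotated as a polymorphic pseudogene, so it was left out. The rule used names alone and no measured value.

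The libraries came from C57BL6 mice that had received an adeno-associated virus (AAV) carrying irisin, a secreted muscle peptide cut from the Fndc5 protein, or AAV-GFP as the control vector. Each vector was combined with a high-fat diet (HFD) or normal chow, fed for 18 weeks. Polyadenylated RNA was sequenced from inguinal fat (iWAT, subcutaneous) and epididymal fat (eWAT, visceral), which gives 8 groups of 3 libraries and 24 in all. All groups, controls included, carry a vector; the labels used here do not give the animals' age, the promoter of the vector, whether a library is 1 mouse or a pool, or whether the depots came from the same mice. P-values therefore measure only the spread between these libraries.

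Chemokines are small secreted proteins that bind G protein-coupled receptors on leukocytes and steer their migration. Inflammatory CC ligands such as Ccl2 draw monocytes and T cells, and homeostatic ligands such as Ccl19, Ccl21 and Cxcl13 place lymphocytes in lymphoid tissue. Atypical receptors bind chemokines without G protein signalling, and Ackr2, Ackr3 and Ackr4 scavenge them. In obese visceral fat the family is known for its part in macrophage and T cell recruitment.

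Levels are given as FPKM, fragments scaled by gene length and by a library total, so they can be set side by side between genes. The authors' total was not the plain read sum. It ran from 0.912 (iWAT irisin HFD 2) to 1.15 (iWAT GFP HFD 1) times the reads recovered from the values. Differences are on the log2(FPKM + 0.5) scale, tested with limma over all genes with at least 0.5 FPKM in 3 or more libraries of the fit. A gene was called where the Benjamini-Hochberg adjusted p over all genes tested was under 0.05. Of the 66 rows, 37 passed the filter in the iWAT fit, 41 in the eWAT fit and 43 in the fit of all 24 libraries, while 23 were tested in no fit and 4 were listed at 0 in every library. Whole reads recovered from the FPKM values came to between 14.1 and 19.7 M reads a library, with a median of 16.4 M. Fndc5 itself ranged from 0.131 to 3.22 FPKM in GFP libraries and from 0.392 to 4.94 FPKM in irisin libraries, and it was called in none of the vector comparisons.

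A few libraries stood apart in markers of other cells, and they bear on several results. The library iWAT GFP HFD 1 had a summed B cell marker level (5 genes) of 379 FPKM and a T cell sum of 66.8 FPKM, against at most 12.7 and 2.89 FPKM in the other iWAT GFP HFD libraries. In eWAT GFP chow 1 the B cell sum was 109.9 FPKM, against 7.96 and 19.7 FPKM in its group. The macrophage sum (6 genes) was 140.6 FPKM in iWAT GFP chow 3, where the other 2 libraries had 966 and 1009 FPKM, and 834 FPKM in eWAT irisin HFD 2, where the others had 2426 and 2846 FPKM. The stromal progenitor sum (4 genes) was also low in iWAT GFP chow 3, at 88.9 FPKM against 434 and 449 FPKM. Muscle genes summed to 2727 FPKM in iWAT irisin chow 3 and all 4 epididymis genes listed were detected in eWAT GFP HFD 3, where other libraries had at most 1 of them. Some of the results that rest on these libraries are also given without them.

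By group mean, Ccl6 led the ligands in every eWAT group, and the leading ligand of iWAT differed with diet. These ranks did not hold in each library. In iWAT GFP chow 3, Cxcl14 (87.7 FPKM) was above Ccl8 (7.42 FPKM). In iWAT GFP HFD 1 the Ccl21a row on the scaffold JH584294.1 (81.9 FPKM) was above Ccl6 (25.7 FPKM). In eWAT GFP chow 1, Cxcl13 (133 FPKM) was above Ccl6 (107 FPKM). In iWAT on chow the highest mean was that of Ccl8, at 275 ± 233 FPKM with GFP and 334 ± 105 FPKM with irisin (SD, n = 3), which is 44.2% and 40.8% of the summed mean of all ligand rows. In iWAT on HFD Ccl6 was first, at 55.4 ± 30.0 and 49.2 ± 18.8 FPKM (SD, n = 3). The mean of Ccl6 was 127 ± 23.2 FPKM in eWAT of GFP mice on chow and 258 ± 65.5 FPKM on HFD (SD, n = 3), which is 38.9% of the ligand sum in both groups. Ccl6 and Ccl9 are CC ligands of the Ccr1 receptor that macrophages make in mice. Among receptors the scavenger Ackr3 had the highest mean in 6 of the 8 groups, and Cxcr4, the Cxcl12 receptor, led in iWAT and eWAT of GFP mice on HFD. In eWAT GFP HFD it was above Ackr3 in all 3 libraries, whereas in iWAT GFP HFD its rank rested on the lymphocyte-rich library 1 (35.8 FPKM against 11.6 FPKM for Ackr3). In the other 2 iWAT GFP HFD libraries Ackr3 was the higher, at 14.4 and 15.4 FPKM against 7.41 and 8.84 FPKM.

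**Figure D1:**
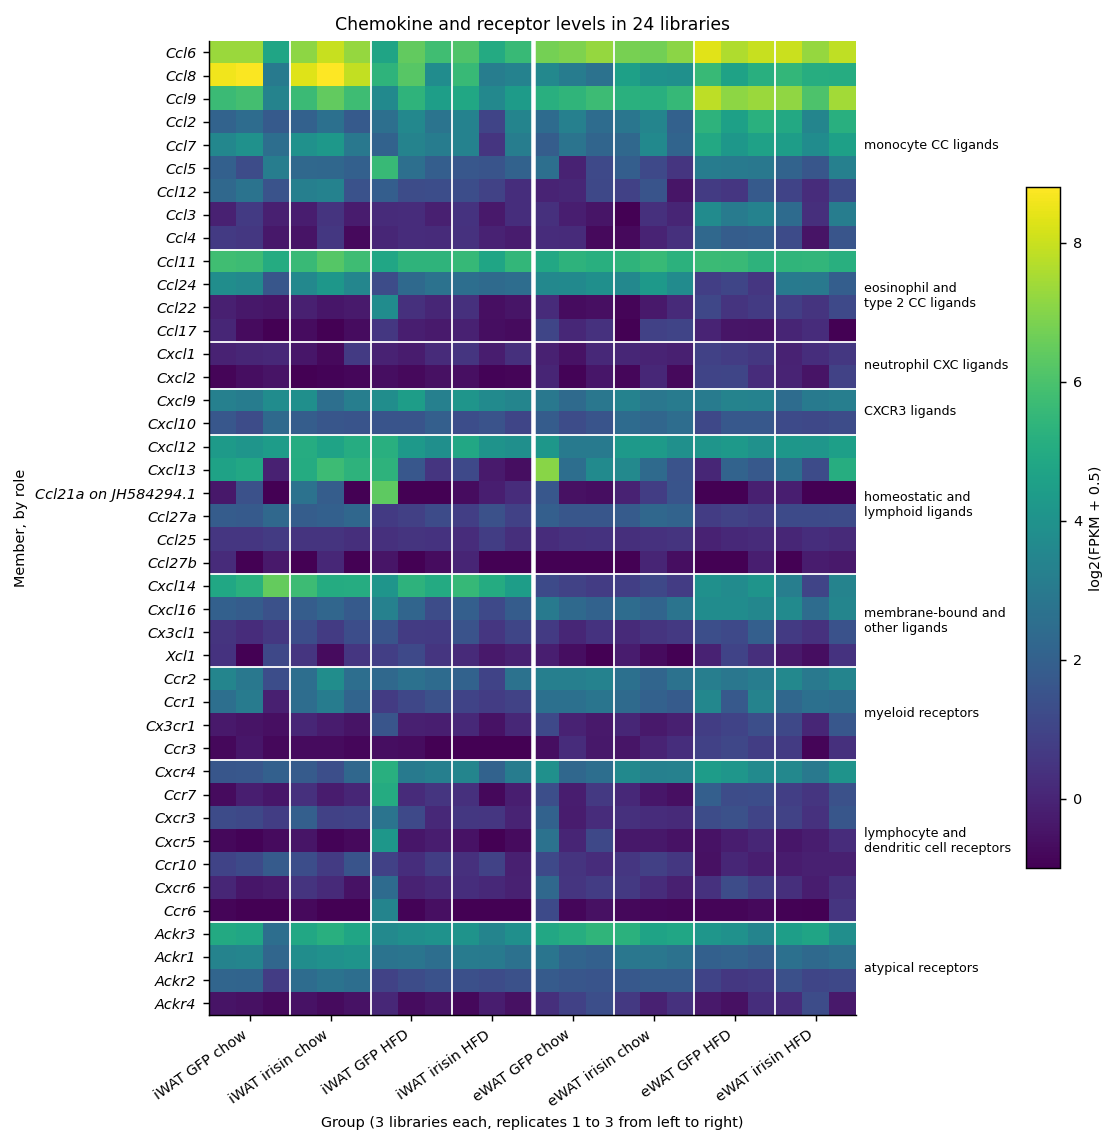
Heat map of log2(FPKM + 0.5) for 42 members tested over both depots (rows, ordered by role) in 24 libraries (columns, 3 a group). Ccl6, Ccl8, Ccl9 and Ccl11 are bright across most libraries, and the library iWAT GFP HFD 1 is bright in the lymphocyte receptors.

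In eWAT most of the inflammatory CC ligands that recruit monocytes rose on HFD. With GFP, 20 of 41 tested members were called, 15 higher and 5 lower, which is 48.8% where 26.5% of all genes tested were called (14.7% higher and 11.8% lower). With irisin, 15 of 41 were called, 10 higher and 5 lower, which is 36.6% beside 17.4% of all genes (9.47% higher and 7.93% lower). Diet groups that do not overlap were common in eWAT. Over all genes tested, all HFD libraries were above all chow libraries in 22.9% with GFP and 18.9% with irisin. They were below in 21.1% and 17.6%. Of the 9 monocyte CC ligands, 7 were called higher with GFP (all but Ccl5 and Ccl12, which had values of 1.79 and 0.63) and 6 with irisin, with medians of 2.01 and 1.12, beside medians over all genes tested of 0.00426 and 0.00272. With irisin the count was 5 or 6 without any of chow 1, chow 2, chow 3, HFD 1 or HFD 3, and 19 without HFD 2, the library low in macrophage transcripts. The share of all genes called without these libraries is not given. Only Ccl9, Ccl27a and Cxcl10 kept their irisin call in all 6 of those fits, whereas 13 of 20 kept it with GFP. The macrophage marker sum was 723 to 1047 FPKM in the GFP chow libraries and 2850 to 4110 FPKM in the GFP HFD libraries. In the irisin libraries it was 549 to 661 FPKM on chow and 834 to 2846 FPKM on HFD. The adipocyte marker sum (4 genes) was 4251 to 5455 FPKM on chow and 2058 to 2392 FPKM on HFD with GFP, and 5129 to 5387 FPKM and 2364 to 6145 FPKM with irisin. The mesothelial sum (4 genes) was 262 to 334 FPKM on chow and 60.7 to 66.3 FPKM on HFD with GFP, and 198 to 329 FPKM and 17.1 to 157 FPKM with irisin. The stromal progenitor sum was 334 to 487 FPKM on chow and 193 to 281 FPKM on HFD with GFP, and 319 to 456 FPKM and 175 to 370.1 FPKM with irisin. The part of these cell types in the member values was not tested. In whole tissue, fewer cells of a type and less RNA per cell cannot be told apart.

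Promoter sequence from RefSeq (GRCm38.p6) is given for 5 of the members whose eWAT levels rose on HFD with both vectors. They have a RefSeq start within 1000 bases of the start in the gene table. Each is the 250 bases before the start site, 5′ to 3′ on the gene's own strand, and capitals mark any match on either strand to TATAAA, to an interferon-response type motif (GAAA, 2 bases of any kind, then GAAA) or to the NF-kB consensus. They are shown because these genes were called in the same direction with both vectors and 4 of them lie in 2 neighbouring clusters on chromosome 11. In Ccl9, 2 TATAAA matches on opposite strands overlap.
Ccl8, chr11:82114935-82115184, + strand: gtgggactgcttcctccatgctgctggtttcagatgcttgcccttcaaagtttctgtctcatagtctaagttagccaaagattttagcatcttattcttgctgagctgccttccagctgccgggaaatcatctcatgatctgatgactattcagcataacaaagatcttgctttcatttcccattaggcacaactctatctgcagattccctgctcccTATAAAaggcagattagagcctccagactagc
Ccl9, chr11:83578637-83578886, - strand: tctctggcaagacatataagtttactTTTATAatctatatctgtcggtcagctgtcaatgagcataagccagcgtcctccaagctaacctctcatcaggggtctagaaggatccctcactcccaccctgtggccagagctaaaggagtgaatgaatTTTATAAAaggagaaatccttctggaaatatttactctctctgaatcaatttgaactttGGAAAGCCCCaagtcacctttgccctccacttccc
Ccl6, chr11:83593088-83593337, - strand: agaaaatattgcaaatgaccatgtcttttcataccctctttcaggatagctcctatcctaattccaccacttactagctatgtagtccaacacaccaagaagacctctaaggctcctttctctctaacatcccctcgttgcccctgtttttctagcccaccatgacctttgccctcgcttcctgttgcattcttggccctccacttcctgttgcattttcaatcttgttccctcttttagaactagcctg
Ccl3, chr11:83649379-83649628, - strand: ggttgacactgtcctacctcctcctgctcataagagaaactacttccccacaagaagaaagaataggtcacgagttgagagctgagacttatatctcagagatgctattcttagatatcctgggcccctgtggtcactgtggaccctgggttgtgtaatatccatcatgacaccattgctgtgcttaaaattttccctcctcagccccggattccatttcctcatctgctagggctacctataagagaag
Cxcl14, chr13:56296552-56296801, - strand: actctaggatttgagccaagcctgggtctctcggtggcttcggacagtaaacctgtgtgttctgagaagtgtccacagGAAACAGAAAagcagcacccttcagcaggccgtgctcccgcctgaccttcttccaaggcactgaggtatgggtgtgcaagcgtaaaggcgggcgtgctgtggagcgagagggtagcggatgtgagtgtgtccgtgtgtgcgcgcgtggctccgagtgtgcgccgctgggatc
Ccl8 has TATAAA starting 32 bases before the start site, Ccl9 has an NF-kB match starting 35 bases before it, and Cxcl14 has a match to the paired GAAA motif starting 172 bases before it. No match to these motifs was in the windows of Ccl6 and Ccl3. Of the 40 members on chromosomes with such a window, 12 (30%) held TATAAA, 9 (22.5%) the NF-kB consensus and 3 (7.5%) the paired GAAA motif. Among all 32851 windows the shares were 12.4%, 7.25% and 2.98%. A match is a description of the letters and not evidence of binding.

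Ccl2, the main Ccr2 ligand and monocyte attractant, stood at 4.87, 9.0 and 5.05 FPKM in eWAT on chow with GFP and at 39.5, 23 and 36.4 FPKM on HFD. With irisin it was 6.64, 10.3 and 3.57 FPKM on chow and 29.3, 10.4 and 35.3 FPKM on HFD. Every HFD library was above every chow library of its vector, and the lowest irisin HFD value was that of library 2. The log2 difference was 2.31 ± 0.47 (SE), adjusted p = 0.00554 with GFP and 1.73 ± 0.47 (SE), adjusted p = 0.0297 with irisin. In iWAT, Ccl2 stayed low, at 3.81, 4.99 and 2.95 (GFP chow), 3.62, 5.62 and 2.89 (irisin chow), 5.46, 11.5 and 6.36 (GFP HFD) and 9.66, 1.51 and 10.3 FPKM (irisin HFD). The GFP HFD values there were all above the GFP chow values, as in 12% of all genes, and the irisin groups overlapped. Neither comparison called it (adjusted p = 0.428 and 0.626).

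Ccl7, a neighbour of Ccl2 that also binds Ccr2, was at 3.21, 6.3 and 4.03 FPKM in eWAT GFP chow and 29.8, 17.9 and 23.9 FPKM in GFP HFD. It was at 4.42, 12 and 3.94 FPKM in irisin chow and 21.3, 13.1 and 23.3 FPKM in irisin HFD. The diet groups did not overlap with either vector, and the log2 difference was 2.30 ± 0.39 (SE), adjusted p = 0.00256 with GFP and 1.56 ± 0.39 (SE), adjusted p = 0.022 with irisin. In iWAT its values were 11.2, 14.9 and 5.28 (GFP chow), 15.1, 18.2 and 7.18 (irisin chow), 3.75, 9.98 and 8.24 (GFP HFD) and 9.67, 0.936 and 8.49 FPKM (irisin HFD). Those ranges overlapped between diets.

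Ccl3 and Ccl4, the MIP-1 ligands, were low in every group other than eWAT on HFD. Ccl3 read 0.775, 0.377 and 0.234 FPKM in eWAT GFP chow and 12.6, 7.87 and 9.64 FPKM in GFP HFD, a log2 difference of 3.47 ± 0.61 (SE), adjusted p = 0.00283. With irisin it read 0, 0.775 and 0.505 FPKM on chow and 4.94, 0.75 and 8.33 FPKM on HFD, a log2 difference of 2.18 ± 0.61 (SE), adjusted p = 0.0331. Irisin HFD library 2 lay within the chow range, so these groups overlapped. In iWAT all 12 values lay from 0.294 to 1.08 FPKM. They were 0.43, 1.08 and 0.406 for GFP chow, 0.358, 0.875 and 0.33 for irisin chow, 0.664, 0.673 and 0.417 for GFP HFD and 0.849, 0.294 and 0.727 for irisin HFD. Ccl4 followed in eWAT, at 0.70, 0.656 and 0.0906 FPKM (GFP chow) and 4.43, 3.19 and 3.39 FPKM (GFP HFD), with a log2 difference of 2.14 ± 0.50 (SE), adjusted p = 0.0106. With irisin Ccl4 was 0.0909, 0.491 and 0.781 FPKM on chow and 1.88, 0.218 and 2.51 FPKM on HFD, a difference of 0.93 ± 0.50 that was not called (adjusted p = 0.225). Without irisin HFD library 2 it was called, at 1.56 ± 0.37 and adjusted p = 0.0127. In iWAT, Ccl4 was 1.08, 0.986 and 0.283 (GFP chow), 0.208, 1.02 and 0.0957 (irisin chow), 0.54, 0.684 and 0.646 (GFP HFD) and 0.821, 0.454 and 0.338 FPKM (irisin HFD), so no iWAT library came near the eWAT GFP HFD values.

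Ccl9 and Ccl6, 2 neighbouring genes of the mouse, were the most abundant ligands of eWAT on HFD. Ccl9 was 36.1, 41.6 and 51.6 FPKM in GFP chow and 222, 139.8 and 158 FPKM in GFP HFD, a log2 difference of 1.98 ± 0.31 (SE), adjusted p = 0.002. With irisin it was 37.1, 35.7 and 46.2 FPKM on chow and 142, 66 and 172 FPKM on HFD, a difference of 1.56 ± 0.31 (SE), adjusted p = 0.00971. The diet groups did not overlap, with irisin HFD library 2 again the lowest of its group. Ccl6 was 107, 120.5 and 152 FPKM in GFP chow and 328, 198 and 248 FPKM in GFP HFD, a difference of 1.01 ± 0.24 (SE), adjusted p = 0.0109. With irisin it was 110.5, 104 and 135 FPKM on chow and 257, 152 and 233 FPKM on HFD, a difference of 0.85 ± 0.24 (SE), adjusted p = 0.0338, and again no HFD value reached down into the chow range.

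Ccl8, a further ligand of the chromosome 11 cluster, rose in eWAT from 11.5, 8.04 and 5.97 to 48, 24.6 and 35.4 FPKM with GFP, a log2 difference of 2.01 ± 0.28 (SE), adjusted p = 0.00126. Among irisin libraries it was 23.5, 15.4 and 14.8 FPKM on chow and 44.1, 34.3 and 33.2 FPKM on HFD, a difference of 1.06 ± 0.28 (SE), adjusted p = 0.0281. The groups were apart with both vectors.

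The type 2 ligand Ccl24 (eotaxin-2), which binds Ccr3 on eosinophils, moved against the inflammatory ligands. It was 11.4, 12.1 and 14.1 FPKM in eWAT GFP chow and 1.27, 1.58 and 0.95 FPKM in GFP HFD, a log2 difference of -2.89 ± 0.28 (SE), adjusted p = 0.000416, the smallest adjusted p of any member in that comparison. The irisin values were 11.3, 19.1 and 12.8 FPKM on chow and 7.52, 7.21 and 3.3 FPKM on HFD, a difference of -1.23 ± 0.28 (SE), adjusted p = 0.0162, called in 5 of 6 fits that left out 1 library and lost without irisin chow 2. The HFD libraries were below the chow libraries with both vectors. Ccl11 (eotaxin-1), the most abundant of this role, was from 28.5 to 51.3 FPKM over all 12 eWAT libraries and was called in no comparison. Ccl22, a Ccr4 ligand made by dendritic cells and macrophages, was low and rose in eWAT. It was 0.653, 0.124 and 0.154 FPKM (GFP chow), 1.6, 0.906 and 1.08 FPKM (GFP HFD), 0.0516, 0.302 and 0.61 FPKM (irisin chow) and 1.27, 0.896 and 1.76 FPKM (irisin HFD), with differences of 1.10 ± 0.32 (SE), adjusted p = 0.0281 and 1.17 ± 0.32 (SE), adjusted p = 0.0323. The call was lost without any of 4 libraries in each comparison. Ccl17, its neighbour, never passed 1.54 FPKM. Ccl1 and Ccl26 passed no filter.

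**Figure D2:**
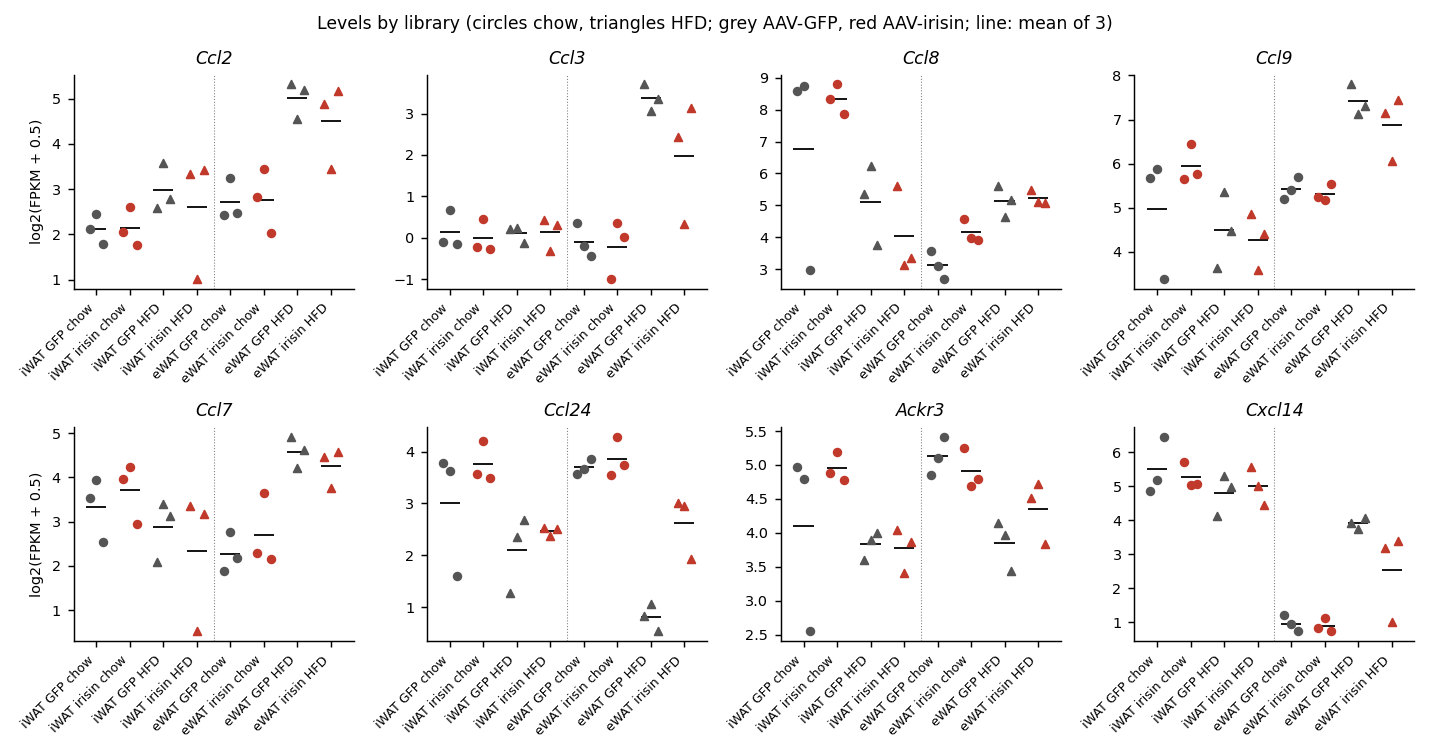
Levels of 8 members as log2(FPKM + 0.5) in each library, by group, with the mean of 3 libraries as a line. Ccl2, Ccl3 and Ccl9 are high in eWAT on HFD with a single low irisin library in each panel, Ccl24 with both vectors and Ackr3 with GFP are lower there than on chow, and Cxcl14 is high throughout iWAT.

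Cxcl14, a CXC chemokine made by stromal and epithelial cells, was higher in iWAT and rose in eWAT on HFD. Its eWAT values were 1.81, 1.42 and 1.18 FPKM in GFP chow and 14.8, 12.8 and 16.2 FPKM in GFP HFD, a log2 difference of 2.94 ± 0.48 (SE), adjusted p = 0.00228. With irisin they were 1.28, 1.68 and 1.16 FPKM on chow and 8.62, 1.53 and 9.99 FPKM on HFD, a difference of 1.64 ± 0.48 (SE), adjusted p = 0.0411. The irisin groups overlapped through HFD library 2 and the call was kept only when that library was left out. In iWAT it was 28.4, 36.2 and 87.7 (GFP chow), 52.3, 32.5 and 32.8 (irisin chow), 16.9, 39.3 and 31 (GFP HFD) and 46.8, 31.8 and 21.2 FPKM (irisin HFD), so every iWAT library exceeded every eWAT library.

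The transmembrane ligands Cxcl16 and Cx3cl1 were called higher in eWAT with GFP and not with irisin. Of the 6 fits that left out 1 library, the GFP call was kept in 2 for Cxcl16 and in 3 for Cx3cl1. Cxcl16, a scavenger receptor for oxidised lipid as well as the Cxcr6 ligand, was 7.58, 4.63 and 3.7 FPKM in eWAT GFP chow and 13.1, 12.9 and 11 FPKM in GFP HFD, a log2 difference of 1.20 ± 0.32 (SE), adjusted p = 0.0191. Irisin libraries had 5.08, 3.95 and 6.29 FPKM on chow and 12.4, 4.99 and 10.6 FPKM on HFD, a difference of 0.74 ± 0.32 (adjusted p = 0.132), called without irisin HFD library 2 (1.12 ± 0.26, adjusted p = 0.0109). Its iWAT values were 3.52, 3.07 and 2.16 (GFP chow), 3.25, 4.18 and 2.91 (irisin chow), 9.3, 4.05 and 1.94 (GFP HFD) and 3.37, 1.71 and 3.14 FPKM (irisin HFD). Cx3cl1 (fractalkine) was 1.09, 0.532 and 0.852 FPKM in eWAT GFP chow and 2.06, 1.73 and 3.44 FPKM in GFP HFD, a difference of 1.11 ± 0.30 (SE), adjusted p = 0.0212. In irisin mice it was 0.626, 0.879 and 1.03 FPKM on chow and 1.09, 0.804 and 2.26 FPKM on HFD, a difference of 0.42 ± 0.30 (adjusted p = 0.364). In iWAT it was 0.88, 0.677 and 0.996 (GFP chow), 1.97, 1.13 and 1.98 (irisin chow), 2.4, 1.12 and 1.08 (GFP HFD) and 2.33, 0.973 and 1.55 FPKM (irisin HFD). The difference between the vectors' diet responses was itself not called for either gene (-0.45, adjusted p = 0.908 for Cxcl16 and -0.69, adjusted p = 0.908 for Cx3cl1).

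The neutrophil attractants that bind Cxcr2 were scarce: Cxcl3, Cxcl5 and Cxcl15 passed no filter. Cxcl1 was 0.422, 0.192 and 0.606 FPKM in eWAT GFP chow and 1.36, 1.19 and 1.01 FPKM in GFP HFD, a log2 difference of 0.92 ± 0.22 (SE), adjusted p = 0.0123, lost without GFP HFD library 1. For irisin the levels were 0.544, 0.489 and 0.413 FPKM on chow and 0.47, 0.728 and 1.02 FPKM on HFD, with no call, and in iWAT it ran from 0.0975 to 1.08 FPKM (0.468, 0.536 and 0.597 in GFP chow, 0.256, 0.0975 and 1.08 in irisin chow, 0.461, 0.344 and 0.653 in GFP HFD, 0.925, 0.36 and 0.773 in irisin HFD). Cxcl2 was 0.51, 0.0349 and 0.26 FPKM in eWAT GFP chow, 1.53, 1.58 and 0.676 in GFP HFD, 0.058, 0.574 and 0.0935 in irisin chow and 0.476, 0.208 and 1.42 in irisin HFD, with no diet call. Its 12 iWAT values were at most 0.21 FPKM (0.0531, 0.143 and 0.21 (GFP chow), 0, 0.0295 and 0.0611 (irisin chow), 0.148, 0.0935 and 0.18 (GFP HFD) and 0.157, 0.0362 and 0.0539 FPKM (irisin HFD)). The neutrophil marker sum (4 genes) was 1.73 to 3.63 FPKM in eWAT on chow and 10.8 to 25.8 FPKM on HFD, and its part in these values was not tested.

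Of the interferon-induced Cxcr3 ligands, Cxcl9 was called in no comparison and Cxcl10 fell on HFD with irisin. Cxcl10 was 4.88, 4.24 and 5.15 FPKM in eWAT irisin chow and 1.77, 1.69 and 1.95 FPKM in irisin HFD, a log2 difference of -1.19 ± 0.19 (SE), adjusted p = 0.00382. With GFP it was 3.13, 1.95 and 2.44 FPKM on chow and 1.68, 2.75 and 2.78 FPKM on HFD, a difference of -0.06 ± 0.19 (adjusted p = 0.856). The irisin groups were apart and the GFP groups overlapped, but the difference between the vectors' diet responses was not called (-1.13 ± 0.27, adjusted p = 0.908). In iWAT, Cxcl10 was 2.68, 1.92 and 4.64 (GFP chow), 3.2, 2.6 and 2.44 (irisin chow), 2.44, 2.4 and 3.43 (GFP HFD) and 2.0, 2.36 and 1.56 FPKM (irisin HFD). Cxcl10 lies within the span of Art3 on the opposite strand, and Art3, at a mean of 55.3 FPKM, fell in eWAT with GFP (-1.60) and with irisin (-1.07). No source used here names the strand setting of the counting, so reads of the 2 genes cannot be told apart where they overlap.

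Among myeloid receptors, Ccr2, the receptor that brings blood monocytes into tissue, was not called by diet in GFP mice. Its eWAT values were 8.95, 8.91 and 9.59 FPKM in GFP chow and 8.56, 6.82 and 8.45 FPKM in GFP HFD, a log2 difference of -0.20 ± 0.18 (95% interval -0.59 to 0.19, adjusted p = 0.447). The irisin values were 5.58, 4.1 and 5.91 FPKM on chow and 11.4, 7.26 and 10.3 FPKM on HFD, a difference of 0.83 ± 0.18 (SE), adjusted p = 0.0126, lost without irisin chow 2 or irisin HFD 1. The GFP HFD values all lay below the GFP chow values, and the irisin chow libraries were the lowest 3 of the 12 eWAT libraries. The difference between the vectors' diet responses was not called (1.02 ± 0.25, adjusted p = 0.908). In iWAT Ccr2 was 10.6, 7.02 and 1.99 (GFP chow), 5.32, 13.5 and 5.27 (irisin chow), 4.4, 5.86 and 4.87 (GFP HFD) and 3.7, 1.47 and 5.89 FPKM (irisin HFD).

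Ccr1 and Ccr3 differed in level and in how firmly they were called. Ccr1, which binds Ccl3, Ccl6 and Ccl9, was 5.68, 5.57 and 6.42 FPKM in eWAT GFP chow, 11.1, 2.79 and 9.93 in GFP HFD, 4.72, 3.62 and 3.0 in irisin chow and 4.35, 5.6 and 5.22 in irisin HFD. GFP HFD library 2 was below the chow range, and neither diet comparison called Ccr1. Without that library it was called higher with GFP (0.78 ± 0.18, adjusted p = 0.016). In iWAT it was 5.42, 7.87 and 0.417 (GFP chow), 5.16, 8.07 and 3.97 (irisin chow), 1.13, 1.64 and 2.16 (GFP HFD) and 1.47, 1.19 and 1.42 FPKM (irisin HFD). Ccr3, the eotaxin receptor of eosinophils, was 0.141, 0.683 and 0.274 FPKM in eWAT GFP chow and 1.36, 1.61 and 1.23 FPKM in GFP HFD, a log2 difference of 1.18 ± 0.38 (SE), adjusted p = 0.0435 that was lost without any of 5 libraries. Irisin libraries had 0.238, 0.495 and 0.729 FPKM on chow and 1.12, 0.0439 and 0.78 FPKM on HFD. Its iWAT values were 0.0839, 0.253 and 0.076 (GFP chow), 0.105, 0.112 and 0.0579 (irisin chow), 0.14, 0.118 and 0 (GFP HFD) and 0, 0 and 0 FPKM (irisin HFD), the last group listed at 0 throughout. Cx3cr1 was called in no comparison, and the neutrophil receptors Cxcr1 and Cxcr2 passed no filter, with Cxcr2 at 2.14 FPKM at most.

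Of the receptors of lymphocytes and dendritic cells, Cxcr4 was called higher in eWAT with GFP and Ccr10 lower with both vectors. Cxcr4 was 14.5, 4.31 and 5.36 FPKM in GFP chow and 20.9, 17.1 and 12.5 FPKM in GFP HFD, a log2 difference of 1.18 ± 0.40 (SE), adjusted p = 0.04999, with overlapping groups through the B cell-rich chow library 1. In irisin mice it was 11.9, 9.08 and 9.34 FPKM on chow and 11.5, 7.27 and 16.1 FPKM on HFD, a difference of 0.13 ± 0.40 (adjusted p = 0.852). Its GFP call was lost without any of 5 libraries and kept without chow library 1. In iWAT it was 2.61, 2.65 and 3.51 (GFP chow), 3.0, 2.02 and 4.33 (irisin chow), 35.8, 7.41 and 8.84 (GFP HFD) and 10.5, 3.77 and 8.08 FPKM (irisin HFD). Ccr10, a receptor for Ccl27 and Ccl28, was 1.76, 0.877 and 0.693 FPKM in eWAT GFP chow and 0.176, 0.542 and 0.389 FPKM in GFP HFD, a difference of -0.86 ± 0.25 (SE), adjusted p = 0.028. For irisin the levels were 0.973, 1.31 and 1.01 FPKM on chow and 0.33, 0.416 and 0.407 FPKM on HFD, a difference of -0.85 ± 0.25 (SE), adjusted p = 0.0406. Its iWAT values were 1.46, 1.78 and 2.99 (GFP chow), 1.99, 1.13 and 2.45 (irisin chow), 1.36, 0.709 and 1.23 (GFP HFD) and 0.785, 1.43 and 0.42 FPKM (irisin HFD). Cntnap1, which overlaps Ccr10 on the opposite strand, fell in the same eWAT comparisons (-0.97 and -1.25), so the Ccr10 values are uncertain.

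Of the 4 atypical receptors, Ackr2 fell in eWAT on HFD with both vectors and Ackr3 with GFP. Ackr3, which scavenges Cxcl12, was 28.5, 34 and 42.3 FPKM in eWAT GFP chow and 17.1, 15.1 and 10.3 FPKM in GFP HFD, a log2 difference of -1.28 ± 0.26 (SE), adjusted p = 0.00561. Among irisin libraries it was 37.6, 25.2 and 27.3 FPKM on chow and 22.2, 25.8 and 13.8 FPKM on HFD, with overlapping groups and a difference of -0.56 ± 0.26 (adjusted p = 0.164). Its iWAT values were 30.8, 27.1 and 5.35 (GFP chow), 29.1, 35.9 and 26.8 (irisin chow), 11.6, 14.4 and 15.4 (GFP HFD) and 15.9, 10.2 and 14.1 FPKM (irisin HFD). Ackr2, which scavenges inflammatory CC ligands, was 2.97, 2.61 and 2.45 FPKM in eWAT GFP chow and 1.44, 0.992 and 1.07 FPKM in GFP HFD, a difference of -0.93 ± 0.15 (SE), adjusted p = 0.00201. The irisin values were 2.76, 3.06 and 2.97 FPKM on chow and 2.15, 1.56 and 1.65 FPKM on HFD, a difference of -0.59 ± 0.15 (SE), adjusted p = 0.0226. The eWAT diet groups were apart for Ackr2 with both vectors. Ackr1 (the Duffy antigen receptor of venules) was 6.57, 4.0 and 3.49 FPKM in eWAT GFP chow, 3.51, 3.87 and 3.22 in GFP HFD, 6.83, 6.84 and 6.01 in irisin chow and 5.64, 4.55 and 5.4 in irisin HFD, and was not called there. Ackr4, which scavenges Ccl19 and Ccl21, was 0.76, 1.38 and 2.05 (GFP chow), 0.294, 0.174 and 0.728 (GFP HFD), 1.05, 0.442 and 0.815 (irisin chow) and 0.693, 1.95 and 0.296 FPKM (irisin HFD), and it was not called by diet. Its iWAT values were from 0.0806 to 0.558 FPKM (0.214, 0.187 and 0.0924 in GFP chow, 0.204, 0.113 and 0.188 in irisin chow, 0.558, 0.132 and 0.218 in GFP HFD, 0.0806, 0.362 and 0.176 in irisin HFD).

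Ccl27a, a skin-homing ligand of Ccr10, was the sole member called lower on HFD in all 4 diet comparisons. In eWAT it was 3.41, 2.61 and 2.59 FPKM (GFP chow), 1.15, 1.43 and 1.22 (GFP HFD), 3.0, 4.32 and 3.88 (irisin chow) and 1.79, 1.78 and 1.85 (irisin HFD), with log2 differences of -0.93 ± 0.15 (SE), adjusted p = 0.00221 and -0.86 ± 0.15 (SE), adjusted p = 0.00555. In iWAT it was 3.12, 2.94 and 4.39 FPKM (GFP chow), 1.09, 1.33 and 1.86 (GFP HFD), 3.21, 3.46 and 4.31 (irisin chow) and 1.25, 2.18 and 1.34 (irisin HFD), with differences of -1.05 ± 0.23 (SE), adjusted p = 0.0398 and -1.01 ± 0.23 (SE), adjusted p = 0.0226. Every HFD library was below every chow library of its depot and vector. In fits that left out 1 library, each eWAT call was kept in all 6. Each iWAT call was kept in only 1 of 6. Of all genes, 21.1% (GFP) and 17.6% (irisin) were apart in this way in eWAT, and 11.3% and 19.2% in iWAT. The gene lies across Il11ra1 on the opposite strand, a gene of 23.6 FPKM on average. Il11ra1 also fell in iWAT (-1.10 with GFP and -1.14 with irisin), so the iWAT values of Ccl27a are uncertain. In eWAT Il11ra1 was not called (0.08 and 0.15, adjusted p = 0.762 and 0.587).

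**Figure D3:**
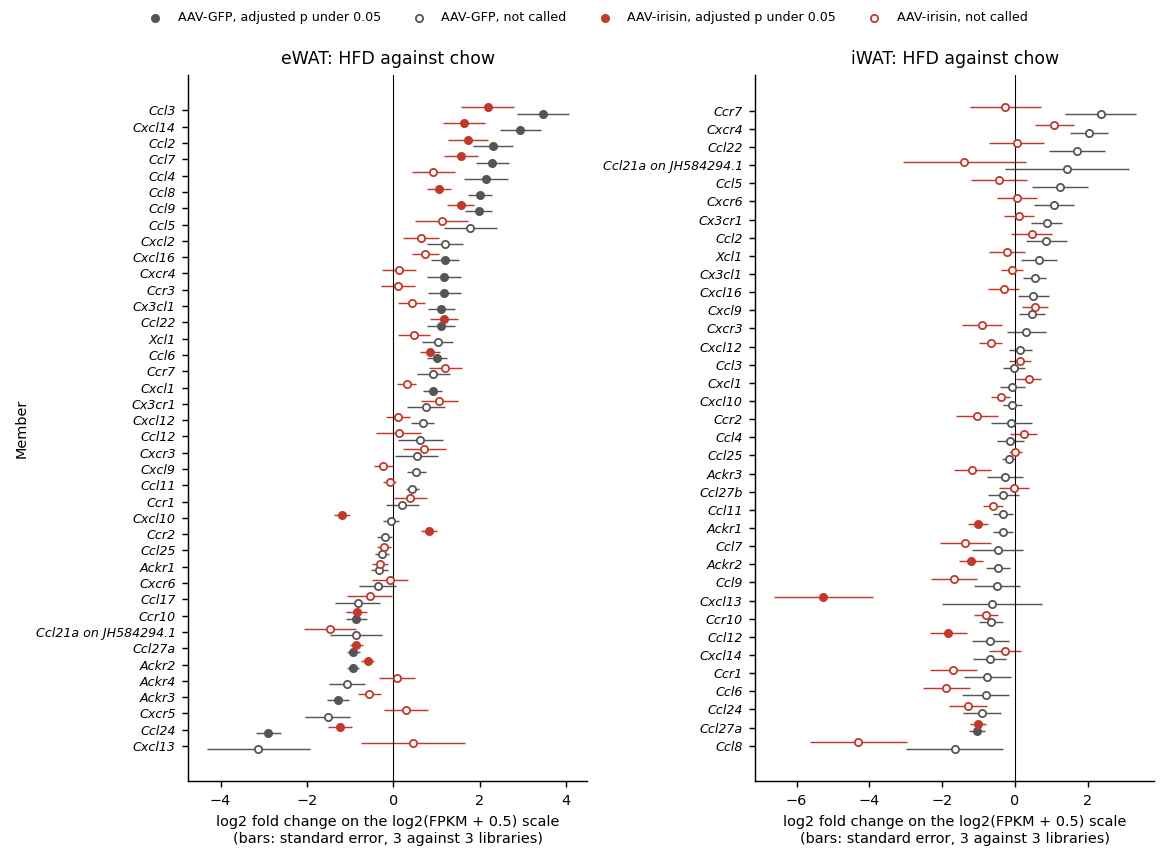
Log2 difference HFD against chow for tested members in eWAT (left, 40 members) and iWAT (right, 36 members), with standard errors. Grey is AAV-GFP and red is AAV-irisin, and filled points have an adjusted p under 0.05. Ccl3 tops the eWAT panel and Ccl24 is among the lowest, while in iWAT few points are filled.

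In iWAT no member was called higher on HFD with either vector. With GFP, Ccl27a alone of 37 was called, lower, where 2.37% of all genes tested were called (1.44% higher and 0.924% lower). With irisin, Cxcl13, Ccl12, Ackr1, Ackr2 and Ccl27a were called lower, 5 of 37 or 13.5%, where 9.01% of all genes were called (4.82% higher and 4.19% lower). Cxcl13, the B cell attractant, was 32.4, 51.4 and 39.8 FPKM in irisin chow and 1.74, 0.326 and 0.145 FPKM in irisin HFD, a log2 difference of -5.27 ± 1.36 (SE), adjusted p = 0.0379. With GFP it was 24.4, 28.8 and 0.432 FPKM on chow and 40.0, 2.63 and 0.926 FPKM on HFD and not called. Chow library 3 was low and the lymphocyte-rich HFD library 1 was high, so these groups overlapped. In eWAT Cxcl13 was 133, 5.27 and 12.3 (GFP chow), 0.529, 3.87 and 2.82 (GFP HFD), 11.8, 4.74 and 2.35 (irisin chow) and 5.36, 1.87 and 33.5 FPKM (irisin HFD), with no call. Ccl12, a mouse Ccr2 ligand, was 8.95, 9.65 and 2.24 FPKM in iWAT irisin chow and 2.02, 1.4 and 0.726 FPKM in irisin HFD, a difference of -1.83 ± 0.50 (SE), adjusted p = 0.0446. With GFP it was 4.5, 6.17 and 2.31 FPKM on chow and 3.32, 1.92 and 1.98 FPKM on HFD, and in eWAT it was 0.491, 0.537 and 1.67 (GFP chow), 1.13, 0.98 and 2.92 (GFP HFD), 1.34, 2.41 and 0.24 (irisin chow) and 1.45, 0.669 and 1.78 FPKM (irisin HFD). Ackr1 was 13.6, 15.1 and 16.2 FPKM in irisin chow and 7.98, 7.73 and 5.87 FPKM in irisin HFD (-1.01 ± 0.27 (SE), adjusted p = 0.0422), and 9.8, 10.4 and 4.25 FPKM on chow and 6.08, 6.47 and 5.31 FPKM on HFD with GFP. Cadm3, which overlaps Ackr1 on the same strand, also fell with irisin (-1.50). Ackr2 was 5.07, 6.16 and 5.25 FPKM on chow and 2.11, 1.92 and 2.23 FPKM on HFD with irisin (-1.21 ± 0.33 (SE), adjusted p = 0.0445) and 4.04, 4.01 and 1.17 FPKM on chow and 1.4, 1.94 and 2.25 FPKM on HFD with GFP.

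These iWAT counts rested on few libraries. With irisin, leaving out any of the 6 libraries left at most 1 member called. With GFP, leaving out chow 3, the library low in macrophage and stromal progenitor transcripts, gave 6 members called lower (Ccl24, Ccl8, Ccr1, Ackr1, Ackr3 and Ackr2) and none higher, while leaving out chow 1, chow 2, HFD 1 or HFD 2 gave none. The share of all genes called in these refits is not given, so the 6 cannot be set beside it. Without the 4 libraries rich in lymphocyte, muscle or epididymis genes the counts were 0 with GFP and 3 with irisin. Without chow 3, the log2 difference of Ccl8 was -3.55 ± 0.78 (adjusted p = 0.0416) and that of Ccr1 was -1.74 ± 0.30 (adjusted p = 0.0178). The Ccl8 values behind this were 386, 431 and 7.42 FPKM in GFP chow, 40.5, 74.7 and 13.1 in GFP HFD, 322, 444 and 235 in irisin chow and 48.1, 8.36 and 9.71 in irisin HFD. Every chow library but GFP chow 3 exceeded every HFD library, and the differences over all libraries were -1.66 ± 1.33 and -4.30 ± 1.33 (adjusted p = 0.532 and 0.0669). Ccl6 was 159, 159 and 26.2 (GFP chow), 25.7, 85.7 and 54.9 (GFP HFD), 139.9, 248 and 152 (irisin chow) and 68.6, 31 and 47.9 FPKM (irisin HFD). Ccl9 was 50.7, 58.4 and 9.9 (GFP chow), 11.9, 40.6 and 21.7 (GFP HFD), 50.0, 86.5 and 53.4 (irisin chow) and 28.4, 11.5 and 20.5 FPKM (irisin HFD). Ccl24 was 13.3, 11.8 and 2.54 (GFP chow), 1.93, 4.58 and 5.88 (GFP HFD), 11.3, 17.9 and 10.8 (irisin chow) and 5.27, 4.69 and 5.16 FPKM (irisin HFD). For Ccl6 and Ccl9 each irisin chow value exceeded each irisin HFD value, as in 19.2% of all genes. Ccl22, at 0.401, 0.28 and 0.241 FPKM in GFP chow, 13.1, 0.776 and 0.527 in GFP HFD, 0.413, 0.262 and 0.326 in irisin chow and 0.792, 0.161 and 0.24 in irisin HFD, was high only in the lymphocyte-rich library. The iWAT macrophage sum was 799 to 1250 FPKM in chow libraries other than GFP chow 3 and 159 to 598 FPKM in HFD libraries. The stromal progenitor sum was 388 to 636 FPKM in those chow libraries and 94.2 to 171 FPKM in HFD libraries. The part of either cell type in these values was not tested.

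Between the depots, Cxcl14 and Ccl8 were higher in iWAT on chow. With GFP on chow, 3 of 43 tested members were called (Cxcl14 and Ccl8 higher and Ackr4 lower in iWAT), beside 4.63% of all genes (1.5% higher and 3.13% lower). With irisin on chow, 4 were called, all higher in iWAT (Cxcl14, Ackr1, Ccl8 and Ccl12), beside 4.33% of all genes (1.93% higher). The log2 difference of Cxcl14 was 4.54 ± 0.49 (SE), adjusted p = 6.1e-06 with GFP and 4.38 ± 0.49 (SE), adjusted p = 1.2e-05 with irisin. For Ccl8 it was 3.65 ± 1.03 (SE), adjusted p = 0.0474 with GFP, where GFP chow 3 overlapped the eWAT range, and 4.17 ± 1.03 (SE), adjusted p = 0.0213 with irisin. Those Ccl8 calls were lost without any of 5 of the 6 libraries in each case. Ackr1 differed by 1.13 ± 0.24 (SE), adjusted p = 0.00765, Ccl12 by 2.02 ± 0.54 (SE), adjusted p = 0.0365, and Ackr4 by -1.46 ± 0.35 (SE), adjusted p = 0.0166. Cadm3, which overlaps Ackr1 on the same strand, was also called higher in iWAT there (1.34 ± 0.29, adjusted p = 0.00827), so the Ackr1 value is uncertain. Ackr4 shares its locus with Acad11 on the opposite strand. The GFP count was 1 without eWAT GFP chow 2 or chow 3, and the irisin count was 2 without iWAT irisin chow 1, iWAT irisin chow 2 or eWAT irisin chow 3. The share of all genes called in these refits is not given.

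On HFD the inflammatory members that were called were lower in iWAT than in eWAT. With GFP, 10 of 43 members were called, all lower in iWAT, beside 15.2% of all genes (9.68% lower). Among them were Ccl3 (-3.26 ± 0.51 (SE), adjusted p = 0.000294), Ccl9 (-2.92 ± 0.54 (SE), adjusted p = 0.0011), Ccl6 (-2.34 ± 0.53 (SE), adjusted p = 0.00529), Ccl4, Ccl2, Cxcl16, Cxcl2, Ccr3 and Ccr1, and 6 of the 10 kept their call whichever library was left out. Without iWAT GFP HFD 3 the count was 6. With irisin, 10 were called, 1 higher and 9 lower in iWAT, beside 10.3% of all genes (3.54% higher and 6.75% lower). Cxcl14 was the higher member (2.47 ± 0.49 (SE), adjusted p = 0.00435). The lower members included Ccl9 (-2.61 ± 0.54 (SE), adjusted p = 0.00521), Ccl6 (-2.15 ± 0.53 (SE), adjusted p = 0.0146), Ccl3, Ccl2, Ccl7, Cxcl16, Ccr3 and Ccr2. Leaving out iWAT irisin HFD 2, eWAT irisin HFD 1 or eWAT irisin HFD 3 brought the irisin count down to 2 or 3. The share of all genes called in these refits is not given. Cxcl14 on HFD with GFP differed by 0.89 ± 0.49 (adjusted p = 0.238). With GFP on HFD the macrophage sum was 310 to 598 FPKM in iWAT and 2850 to 4110 FPKM in eWAT. With irisin on HFD it was 159 to 481 FPKM in iWAT and 834 to 2846 FPKM in eWAT. The part of macrophage content in these depot differences was not tested.

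The depot difference in diet response was called for 2 members with GFP and 4 with irisin. With GFP the difference (eWAT response minus iWAT response) was called for Cxcl14, 3.65 ± 0.70 (SE), adjusted p = 0.00833, and Ccl3, 3.50 ± 0.71 (SE), adjusted p = 0.011. That is 2 of 43 or 4.65%, near the 4.31% of all genes. The Cxcl14 response was 2.94 in eWAT and -0.70 in iWAT, and the Ccl3 response was 3.47 and -0.03. With irisin the difference was called for 4 of 43 or 9.3%, beside 3.73% of all genes. None of the 4 calls was kept in every fit that left out 1 library. They included Ccl8, 5.36 ± 1.45 (SE), adjusted p = 0.0469, Ccl9, 3.24 ± 0.76 (SE), adjusted p = 0.0278, and Ccl6, 2.73 ± 0.74 (SE), adjusted p = 0.0473. Ccl8 there had a response of 1.06 in eWAT and -4.30 in iWAT. Without iWAT GFP chow 3 the GFP count was 9, with Ccl8, Ccl6, Ccl9, Ccl4, Ccl7 and Ccr1 among the additions, and without eWAT irisin HFD 2 the irisin count was 8, adding Ccl3, Cxcl14, Cxcl13 and Ccl7. All of those additions were positive, and the share of all genes called in those refits is not given. Leaving out iWAT GFP HFD 2 gave 4 with GFP, adding Ccl9 (2.91 ± 0.77) and, with a negative value, Cxcr5 (-4.31 ± 1.09). Leaving out the lymphocyte-rich iWAT GFP HFD 1 gave 3, adding Ccl24 with a negative value (-2.40 ± 0.62). For irisin the count was 5 without iWAT irisin HFD 1, 2 without iWAT irisin chow 1 or chow 3, and 0 without any of the remaining 8 libraries. Without the 4 libraries rich in lymphocyte, muscle or epididymis genes the counts were 0 with GFP and 1 with irisin.

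Irisin against GFP gave no called member in either depot on either diet. In limma, 0 of 37 members were called in iWAT on chow and on HFD, and 0 of 41 in eWAT on chow and on HFD. No gene of the table (0%) was called in these 4 comparisons. At an unadjusted p under 0.05 the numbers of members were 3, 0, 8 and 8. Over all genes they were 688 and 431 of 16125 in iWAT, and 845 and 1510 of 16274 in eWAT. Limma voom on the recovered reads also called 0 members in each comparison. The intervals leave room for sizeable differences: for Ccl2 in eWAT on HFD the 95% interval of the log2 difference was -1.56 to 0.51, for Ccl8 -0.54 to 0.71, for Ccl6 -0.80 to 0.25, and for Ccr2 -0.14 to 0.64.

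In eWAT on HFD, 8 of 41 members had an unadjusted p under 0.05, beside 1510 of all 16274 genes. The members included Ccl24, Ccl3, Ccl4 and Cxcl14. Ccl24 was 1.27, 1.58 and 0.95 FPKM with GFP and 7.52, 7.21 and 3.3 FPKM with irisin, so all 3 irisin libraries were above all 3 GFP libraries, as in 6.66% of all genes (6.76% were apart the other way). Its log2 difference was 1.82 ± 0.28 (95% interval 1.19 to 2.45, unadjusted p = 5.5e-05, adjusted p = 0.302). It was called without irisin HFD 3 (2.17 ± 0.22, adjusted p = 0.0144), its lowest irisin library here, so leaving that library out widens the difference. Fits that left out 1 library called 0 to 1 members in this comparison, and every other setting called 0. The share of all genes called in that refit is not given. Ccl3 (-1.40 ± 0.61, adjusted p = 0.533), Ccl4 (-1.26 ± 0.50, adjusted p = 0.533) and Cxcl14 (-1.38 ± 0.48, adjusted p = 0.533) had negative values, with irisin HFD 2 the lowest library for all 3. The vector groups were apart for Ccl4 and Cxcl14 and overlapped for Ccl3. Of the 15 members called higher on HFD with GFP, 13 had a negative value here, and of the 5 called lower, none had. These counts share the GFP HFD libraries with the diet comparison that chose the members. That choice favours opposite signs here, so the counts are only a description. The share of all genes chosen in the same way is not given. The macrophage sum was 2850 to 4110 FPKM in the GFP HFD libraries and 834 to 2846 FPKM in the irisin HFD libraries, and its part in these values was not tested.

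In eWAT on chow, 8 of 41 members had an unadjusted p under 0.05, beside 845 of all 16274 genes. The members included Cxcl10, Ccr2 and Ccl8. Cxcl10 was 3.13, 1.95 and 2.44 FPKM with GFP and 4.88, 4.24 and 5.15 FPKM with irisin, with the groups apart, higher with irisin as in 5.63% of all genes (0.82 ± 0.19, adjusted p = 0.674). Ccr2 was 8.95, 8.91 and 9.59 FPKM with GFP and 5.58, 4.1 and 5.91 FPKM with irisin, apart and lower with irisin as in 4.38% (-0.77 ± 0.18, adjusted p = 0.674). Ccl8 was apart too, higher with irisin (1.05 ± 0.28, adjusted p = 0.939). In iWAT on chow, Ackr1 and Ackr2 were apart, higher with irisin as in 8.22% of all genes (0.93 ± 0.27 and 0.88 ± 0.33, adjusted p = 0.919 and 0.919), with GFP chow 3 the lowest library for each. The Ackr1 value is uncertain, since the overlapping same-strand gene Cadm3 also had a positive difference there (1.10 ± 0.37, adjusted p = 0.919). The difference between the vectors in their diet response was called for 0 of 37 members in iWAT (0% of all genes). In eWAT it was called for 0 of 41 (0.00614% of all genes), and limma voom called 0 in both depots. At an unadjusted p under 0.05 there were 1 and 7 members, beside 996 of 16125 and 658 of 16274 genes.

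**Figure D4:**
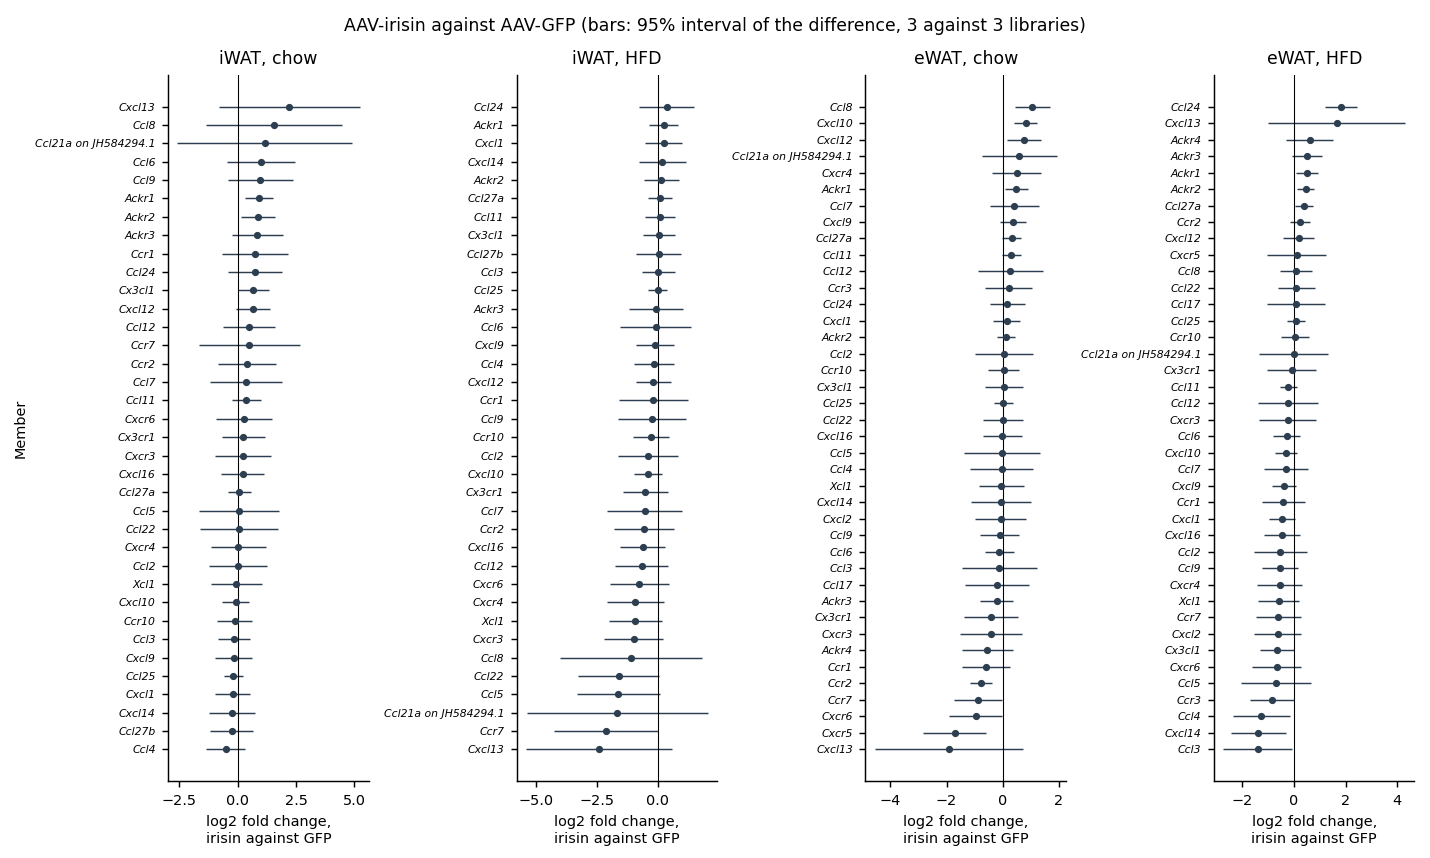
Log2 difference irisin against GFP for tested members by depot and diet, with the 95% interval. No member passed an adjusted p of 0.05, and Ccl24 in eWAT on HFD has the interval farthest from 0 in that panel.

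Many lymphoid members were highest in the same library. In iWAT GFP HFD 1, 18 of the 62 members with a value above 0 had their highest level of all 24 libraries, and 14 of them were over 2 times the next library. All 11 receptors of lymphocytes and dendritic cells were above both other libraries of the group there. Ccr7, which guides dendritic cells and naive T cells to Ccl19 and Ccl21, was 32.1 FPKM there and at most 3.35 FPKM elsewhere. Cxcr5, the receptor for Cxcl13 on B cells, was 17.7 FPKM there, 6.0 FPKM in eWAT GFP chow 1 and at most 1.71 FPKM elsewhere. Ccr6, the Ccl20 receptor, was 10.1 and 1.79 FPKM in those libraries and at most 0.907 FPKM in the others. Ccl19 was 15.8 FPKM in iWAT GFP HFD 1, 0.147 FPKM in eWAT irisin HFD 3 and listed at 0 in the other 22. The Ccl21a row on the scaffold JH584294.1 read 81.9 FPKM in iWAT GFP HFD 1 and at most 5.98 FPKM elsewhere. The summed level of lymph node stroma and high endothelium genes (5 in the table) was 28.5 FPKM in that library and at most 0.546 FPKM in the other iWAT libraries. In eWAT the sum was also high on chow, at 9.66 to 18.0 FPKM with GFP and 8.17 to 25.4 FPKM with irisin. On HFD it was 1.72 to 4.55 and 1.84 to 7.67 FPKM there, so a high sum was not particular to iWAT GFP HFD 1. Glycam1, a defining gene of high endothelial venules, was 9.21 FPKM in iWAT GFP HFD 1 and at most 0.526 FPKM elsewhere. Other genes of the list therefore made up most of each eWAT sum.

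**Figure D5:**
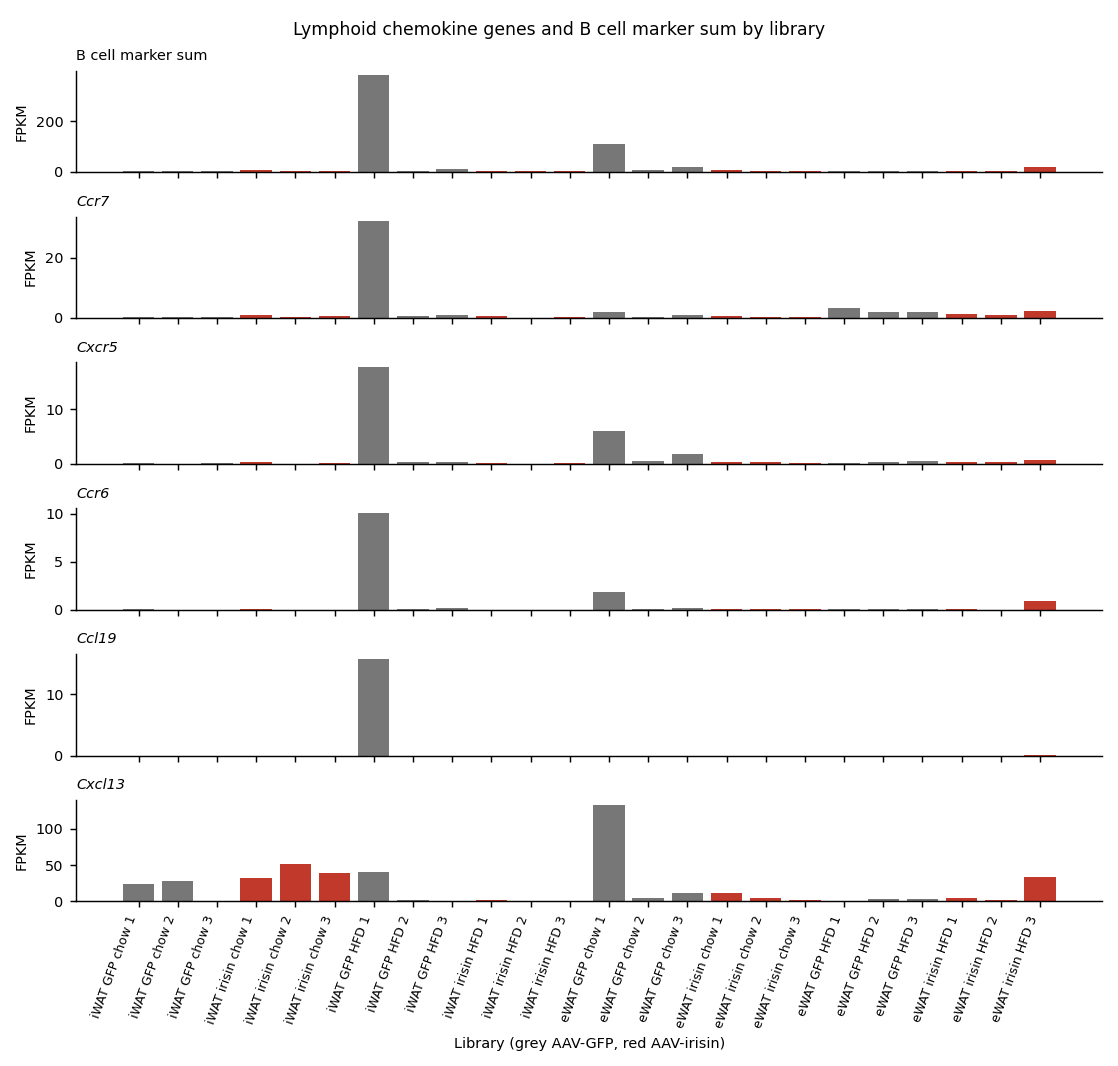
Level in FPKM of the summed B cell markers and of Ccr7, Cxcr5, Ccr6, Ccl19 and Cxcl13 in each of 24 libraries. The bar of iWAT GFP HFD 1 is the highest in every panel but that of Cxcl13, where eWAT GFP chow 1 is.

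In eWAT GFP chow 1, Cxcl13 reached 133 FPKM, the highest value of this gene. Cxcr3, the receptor of Cxcl9 and Cxcl10 on T cells, was 3.7, 0.333 and 0.691 FPKM in eWAT GFP chow and 1.93, 2.16 and 1.49 FPKM in GFP HFD. Ccl5, a T cell and macrophage product, was 5.5, 0.451 and 1.74 FPKM on chow and 8.12, 7.62 and 6.99 FPKM on HFD. Neither was called, and without chow 1 both were called higher on HFD (1.23 ± 0.32, adjusted p = 0.0215 for Cxcr3 and 2.46 ± 0.53, adjusted p = 0.0115 for Ccl5). For Ccl5 the call also appeared with all libraries in limma at a pseudocount of 1 (adjusted p = 0.0497), with a filter of 1 FPKM (adjusted p = 0.0486), with limma voom (adjusted p = 0.036) and with the replicate block (adjusted p = 0.0441). Cxcl12, the stromal ligand of Cxcr4 and Ackr3, was 17.8, 7.74 and 7.65 FPKM in GFP chow and 16.8, 18.5 and 14.9 in GFP HFD and likewise was called higher only without chow 1 (1.07 ± 0.16, adjusted p = 0.00444). Ccr7 (1.31 ± 0.36, adjusted p = 0.0286), Xcl1, Cx3cr1 and Cxcl2 were called without chow 1 as well. The count of members called with GFP was 25 without that library and 14 to 19 without any other. For these fits the share of all genes called is not given.

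Several members gave little to read. Ccl1, Cxcl3, Cxcl5, Cxcl15 and Cxcr1 stayed at or under 0.46 FPKM, Ccl26 at or under 1.08 FPKM, the Ccl27a copy on another scaffold at or under 0.359 FPKM, and every Ccl21 row but that of Ccl21a on the scaffold at or under 0.763 FPKM. Over the 24 libraries Ccl5 ran from 0.451 to 48.1 and Cxcl12 from 7.65 to 35.4 FPKM. Of the members tested but never called, Cxcl9 ran from 4.78 to 21.4, Cx3cr1, the fractalkine receptor, from 0.166 to 2.62, and Cxcr6, the Cxcl16 receptor of T cells, from 0.196 to 4.9 FPKM over the 24 libraries. Ccl20 and 1 scaffold row each of Ccl19, Ccl21c and Ccl27a were listed at 0 in every library. Ccl25, Cxcl17, Ccl27b and Ccl28 stayed at or under 1.2 FPKM, and the receptors Ccr4, Ccr8, Ccr9 and Xcr1 at or under 1.68 FPKM. Xcl1, a T and NK cell ligand of Xcr1, ran from 0 to 1.73 FPKM. In all, 5 symbols (Ccl19, Ccl21a, Ccl21b, Ccl21c and Ccl27a) covered 11 rows, of which 7 lay on unplaced scaffolds. Reads could be divided or lost between such near-identical copies, so their values are uncertain. Outside the rule, Cxcl11 lay from 0.0885 to 0.704 FPKM.

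Many members lie in chromosomal clusters (coordinates from the gene table, whose starts match GRCm38). On chromosome 11, the 6 genes from 82035571 to 82305690 (Ccl2, Ccl7, Ccl11, Ccl12, Ccl8 and Ccl1) had 5 tested members in eWAT, of which Ccl2, Ccl7 and Ccl8 were called higher with both vectors. The 5 genes from 83525778 to 83664683 (Ccl5, Ccl9, Ccl6, Ccl3 and Ccl4) were all tested, and 4 were called higher with GFP and 3 with irisin. Over all genes tested in eWAT, 14.7% were called higher with GFP and 9.47% with irisin. Ccl11 in the first cluster had a difference of 0.44 ± 0.15 and Ccl5 in the second of 1.79 ± 0.61, neither of them called. On chromosome 5, Ccl24 (cluster of Ccl26 and Ccl24 from 135560448 to 135573049) fell. Neighbours in a cluster therefore differed in their calls, while differences between neighbours were not tested. Ccl5 was called with GFP when eWAT GFP chow 1 was left out.

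Other genes of the chemokine pathway were counted from a list of 44 outside the name rule, of which 43 were tested in eWAT and 42 in iWAT. It holds the platelet chemokines Pf4 and Ppbp, the receptors Ccrl2 and Gpr182, chemerin genes, G protein subunits, kinases, arrestins, adaptors and small GTPases, regulators of G protein signalling and proteases. In eWAT with GFP, 21 were called higher on HFD and 2 lower, beside 14.7% and 11.8% of all genes (median log2 difference 0.547, beside 0.00426 over all genes). With irisin 11 were called higher and 2 lower, beside 9.47% and 7.93% of all genes (median 0.501, beside 0.00272). The macrophage sum given above was higher in every HFD library than in the chow libraries of its vector, and its part in these counts was not tested. Dpp4 is both in this list and among the stromal progenitor markers. The smallest adjusted p-values with GFP belonged to the G protein subunit Gng2 (2.02 ± 0.19), the macrophage elastase Mmp12 (8.29 ± 0.77), the G protein regulator Rgs1 (4.79 ± 0.47) and the chemerin receptor Cmklr1 (-1.05 ± 0.12). Gng2, Mmp12, Rgs1 and Grk5, a receptor kinase, led with irisin (2.06 ± 0.19, 5.70 ± 0.77, 3.44 ± 0.47 and 0.91 ± 0.13). In iWAT, 1 of 42 was called higher with GFP, beside 1.44% of all genes (Ptk2b, a focal adhesion kinase, 1.24 ± 0.21) and 2 with irisin, beside 4.82% (Grk5, 0.80 ± 0.13, and Ptk2b, 0.86 ± 0.21). Pf4 and Ppbp were called in no diet comparison, and Ccrl2, which binds chemerin, was called higher in eWAT with GFP (1.40 ± 0.31). No pathway gene was called between the vectors.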

How the data were processed

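The 24 libraries were grouped by depot, vector and diet as labelled, 3 a group. The submitters' processing notes name HISAT2 2.0.5 and featureCounts 1.5.0-p3. The deposited table holds FPKM values that the authors computed from those reads per gene, and the 8 columns of group means were not used. No source used here names the strand setting. FPKM times gene length gave whole reads for 100% of values (tolerance 0.01), so depth is known: 14.1 to 19.7 M reads a library. No 2 libraries held identical values.

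FPKM values were tested as log2(FPKM + 0.5) with limma 3.58.1 in R 4.3.3 (empirical Bayes with a trend), in 1 fit per depot (12 libraries) and 1 fit of all 24 for the depot comparisons, over genes with at least 0.5 FPKM in 3 or more libraries, with Benjamini-Hochberg adjustment over all genes tested. Fold changes on this scale understate the change of low genes. The procedure was tested on simulated data. Members with a call in any comparison and a group mean of at least 1 FPKM, and the highest or lowest of each role group, were given in every library. Alternatives were other pseudocounts and filters, upper-quartile and quantile scaling, limma voom on the recovered reads, the replicate block, fits of only the groups compared, and leaving out libraries. The set of 2 libraries low in macrophage transcripts was chosen after seeing the data. The members and lists were chosen with earlier results of these data known. A single member is counted in the totals, and its values are not reported here.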

Additional observations from a re-analysis of the deposited data

Results flagged for a closer look

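The diet response (HFD against chow) of several members differed between the depots by the test of the difference itself, coded as the eWAT response minus the iWAT response, in limma over 24 libraries with Benjamini-Hochberg adjustment over all genes. With AAV-GFP the log2 difference was 3.50 for Ccl3 (adjusted p = 0.011) and 3.65 for Cxcl14 (adjusted p = 0.00833). With AAV-irisin it was 5.36 for Ccl8 (adjusted p = 0.0469), 2.73 for Ccl6 (adjusted p = 0.0473) and 3.24 for Ccl9 (adjusted p = 0.0278). The GFP calls of Ccl3 and Cxcl14 were kept in each of 12 fits that left out 1 library, and none of these irisin calls was. The share of tested members called was 4.65% with GFP, near the 4.31% of all genes. With irisin it was 9.3%, beside 3.73% of all genes.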

How the results depend on the processing

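Leaving out 1 library at a time kept 29 of 74 member calls in every fit and lost 45 in at least 1. The number of members called then ranged from 0 to 6 (HFD against chow in iWAT, GFP), 0 to 1 (the same, irisin), 14 to 25 (eWAT, GFP), 5 to 19 (eWAT, irisin), 0 to 1 (irisin against GFP in eWAT on HFD), 1 to 4 (iWAT against eWAT, GFP chow), 6 to 11 (GFP HFD), 2 to 4 (irisin chow), 2 to 13 (irisin HFD), 2 to 9 (depot by diet, GFP) and 0 to 8 (depot by diet, irisin). No result reversed.

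With no filter on low values the counts were 0 for diet in iWAT with GFP (1 reported), 1 in iWAT with irisin (5), 7 in eWAT with irisin (15), 6 between depots with irisin on HFD (10) and 0 for depot by diet with irisin (4). Quantile normalisation gave 3 for iWAT with irisin. Limma voom gave 3 there, 2 between depots with irisin on chow (4), and 1 and 2 for depot by diet with GFP (2) and irisin (4). Fitting only the groups compared gave 0, 10 and 4 for diet in iWAT GFP, iWAT irisin and eWAT irisin, 1, 8 and 0 between depots for GFP chow (3), irisin chow and irisin HFD, and 4 for depot by diet with GFP. That fit was not run for vector by diet, where it is the reported fit. Without the 4 libraries rich in other tissues the counts were 0 and 3 for diet in iWAT with GFP and irisin, and 0 and 1 for depot by diet. Without the 2 libraries low in macrophage transcripts they were 6 and 12 for diet in iWAT, 5 and 7 between depots on chow, and 10 and 12 for depot by diet, each for GFP and then irisin. The cause of these changes was not tested, and the share of all genes called under each setting is not given.

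Correlations of same-numbered deviations ran from -0.26 to 0.317 in iWAT, -0.351 to 0.325 in eWAT and -0.17 to 0.357 between depots. Those of other-numbered deviations ran from -0.428 to 0.314, -0.402 to 0.548 and -0.397 to 0.418. With 3 libraries a group, these values cannot show whether same-numbered libraries of the depots came from the same mice. With the replicate block, depot by diet with GFP gave 5 members called and no other count moved by over 1.5 times.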
